A study of Homo sapiens with 6 samples.

Results

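The genes that build, lengthen and desaturate fatty acids were examined in the human lung adenocarcinoma line H2122. The set held 10 of the 23368 genes in the deposited count table: SREBF1, ACACA, FASN, SCD, FADS1, FADS2, ELOVL1, ELOVL5, ELOVL6 and ELOVL7. They were chosen by gene symbol, and all 10 had enough counts to be tested. RNA was sequenced 48 hours after the cells were transfected with LYCAT shRNA in 3 libraries or with control shRNA in 3 libraries; LYCAT is an older name of LCLAT1. Both groups therefore received an shRNA, and all libraries came from the same line; the sources used here give neither the shRNA sequences nor the vector. The series title speaks of a knockout, whereas the sample labels name an shRNA. Nothing in the labels says that the libraries of a group are separate cultures, and the p-values therefore cover only the spread among these libraries, possibly a technical one.

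Fatty acids are made in the cytosol from acetyl-CoA. Acetyl-CoA carboxylase forms malonyl-CoA, fatty acid synthase assembles palmitate from it with NADPH, and the product is then lengthened in the endoplasmic reticulum by ELOVL elongases and given double bonds by the SCD and FADS desaturases. SREBF1 encodes SREBP-1, a membrane-bound transcription factor that is cut free when lipid is scarce and that induces many of these enzymes. Many carcinomas make fatty acids themselves, and the acyl chains so produced are the material that acyltransferases such as LCLAT1 place in phospholipids.

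LCLAT1 is the target of the shRNA and was read first. With LYCAT shRNA it had 18.9, 22.6 and 23.6 CPM (counts per 1000000 counts, on scaled library sizes), against 56.8, 61.2 and 65.3 CPM in the control shRNA libraries. The groups did not overlap, and counts of 89, 70 and 101 remained with LYCAT shRNA. Library totals were 3118946 to 4730453 counts with LYCAT shRNA and 4075367 to 4930079 with control shRNA, so that 3 counts equal 0.608 to 0.967 CPM. All 9 carcinoma epithelium markers were abundant enough to test, with summed levels of 2101 to 2161 CPM in LYCAT shRNA libraries and 2345 to 2416 CPM in control shRNA libraries. Of these markers 5 passed as lower (edgeR adjusted p under 0.05) and 0 as higher, where 9.26% of all tested genes passed as lower and 9.81% as higher. With DESeq2 3 passed as lower, where 5.03% of all tested genes did. The sum of 10 fibroblast markers, to which collagen genes gave the largest part, set control replicates 1 and 2 apart. It was 38.7, 19.7 and 32.2 CPM in the LYCAT shRNA libraries and 91.9, 135 and 32.3 CPM in the control shRNA libraries. The collagen gene COL1A1 alone had 25.9, 16.4 and 22.9 CPM with LYCAT shRNA and 59.4, 82.7 and 28.3 CPM with control shRNA. Of these 10 markers 3 were abundant enough to test, COL1A1, COL1A2 and COL3A1, and none passed with edgeR (adjusted p = 0.158, 0.393 and 0.31). DESeq2 called 1 of them lower and limma-voom 2, where 5.03% and 8.64% of all tested genes were called lower. COL6A3 and THY1 were also highest in control replicates 1 and 2. LUM, however, was lower in control replicate 1 than in LYCAT shRNA replicates 1 and 3, and PDGFRA had no count in control replicate 1. At very low levels, PDGFRA was highest in LYCAT shRNA replicate 1 and PDGFRB in LYCAT shRNA replicate 3. FAP had no count in any library and DCN had counts in control replicate 2 only. Endothelial markers summed to 0.322 to 0.851 CPM with LYCAT shRNA and 0.739 to 4.07 CPM with control shRNA, with 2 of 6 at 0 in every library. Blood cell markers summed to 4.20 to 5.80 CPM with LYCAT shRNA and 3.22 to 4.66 CPM with control shRNA, with 3 of 8 at 0 in every library. The part of these markers in the results was not tested. Values without control replicates 1 and 2 together are given below, in a fit that takes the spread of the single control library from the LYCAT shRNA libraries. Over all tested genes, control replicate 2 lay furthest from the other controls. The chi-square of the counts per degree of freedom was 2.58 to control replicate 1 and 2.27 to control replicate 3. Between control replicates 1 and 3 it was 1.67, and the cause was not tested.

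With LYCAT shRNA the transcription factor gene SREBF1 and the desaturase gene SCD fell, and the elongase genes ELOVL5 and ELOVL7 rose. In these bulk libraries, less RNA per cell and fewer cells that express a gene cannot be told apart. ACACA and FASN, the enzymes that make the saturated chain, did not pass, nor did FADS1, FADS2, ELOVL1 and ELOVL6. A gene was said to rise or fall when its p-value from edgeR's quasi-likelihood test, corrected over all 11097 tested genes after Benjamini and Hochberg, was under 0.05. Of the 10 members 2 passed as higher, where 9.81% of all tested genes did, and 2 as lower, where 9.26% did. In either direction 4 passed, beside a background of 19.1%. The groups did not overlap for those 4 members, 2 higher and 2 lower, and for 32.8% of all tested genes, 16.6% higher and 16.2% lower; the count of members without overlap was thus near the background. With DESeq2, 2 members passed as higher and 2 as lower, beside 5.72% and 5.03% of the genes it tested, and with limma-voom also 2 and 2, beside 9.25% and 8.64%. The median log2 fold change was 0.07 over the 10 members and -0.01 over all tested genes.

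The promoter windows of the 4 genes that passed are shown because these members carry the difference between the groups. The windows run from 250 bases before to 50 bases after the annotated start and come from RefSeq on GRCh38.p14, where 12 windows matched by symbol for 9 of the 10 members, all but FASN. They are written 5′ to 3′ along the gene. Capitals mark CCAAT, the box bound by NF-Y, and CACGTG, an E-box, on either strand; SREBP-1 is known to act together with NF-Y and Sp1.
SREBF1 (GRCh38.p14 chr17:17836937-17837236, minus strand): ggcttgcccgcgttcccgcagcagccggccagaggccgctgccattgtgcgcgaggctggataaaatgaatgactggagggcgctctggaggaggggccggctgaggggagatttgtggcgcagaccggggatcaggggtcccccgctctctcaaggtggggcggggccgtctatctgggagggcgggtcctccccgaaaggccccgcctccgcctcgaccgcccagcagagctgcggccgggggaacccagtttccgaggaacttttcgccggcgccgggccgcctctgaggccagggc
SCD (GRCh38.p14 chr10:100346983-100347282, plus strand): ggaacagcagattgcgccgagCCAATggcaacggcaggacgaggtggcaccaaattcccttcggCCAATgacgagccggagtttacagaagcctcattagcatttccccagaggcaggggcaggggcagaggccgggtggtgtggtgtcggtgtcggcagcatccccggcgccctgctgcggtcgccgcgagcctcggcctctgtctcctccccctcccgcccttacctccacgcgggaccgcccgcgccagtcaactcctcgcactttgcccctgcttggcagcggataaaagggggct
ELOVL5 (GRCh38.p14 chr6:53348901-53349200, minus strand): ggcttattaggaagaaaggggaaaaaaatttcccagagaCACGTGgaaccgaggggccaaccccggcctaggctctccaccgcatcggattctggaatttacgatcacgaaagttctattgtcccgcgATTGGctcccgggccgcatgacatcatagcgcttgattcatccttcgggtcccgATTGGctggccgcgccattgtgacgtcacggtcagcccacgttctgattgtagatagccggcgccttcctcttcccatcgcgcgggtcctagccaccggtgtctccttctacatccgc
ELOVL7 (GRCh38.p14 chr5:60844220-60844519, minus strand): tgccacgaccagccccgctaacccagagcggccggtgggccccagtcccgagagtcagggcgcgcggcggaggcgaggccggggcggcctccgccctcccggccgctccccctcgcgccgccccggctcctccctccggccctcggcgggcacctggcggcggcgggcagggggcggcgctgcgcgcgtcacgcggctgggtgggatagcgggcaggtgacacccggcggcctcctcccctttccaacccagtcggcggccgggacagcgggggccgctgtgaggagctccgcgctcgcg
Of the 4 windows only SCD and ELOVL5 held CCAAT or its reverse complement, SCD at -229 and -186 and ELOVL5 at -122 and -68 from the start, counted to the first letter of the motif. Among member windows 6 of 12 held CCAAT on either strand, and 34.6% of all 35116 windows of this length did. ACACA and FADS2 gave more than 1 window each, and those of FADS2 overlap, so counts of member windows here and below are not counts of genes. CACGTG was found in 1 of 12 member windows, that of ELOVL5 at -211, and in 7.26% of all windows. The Sp1 box GGGCGG, not capitalised above, was found on either strand in 9 of 12 member windows and in 45% of all windows; ELOVL5 had none, and SREBF1 had 3. A search for TCACNCCAC, a core of the sterol regulatory element, found 0 of 12 member windows and 1.13% of all windows. Only these windows were searched, without FASN, so the element was not looked for elsewhere in or near these genes. The motifs were searched separately, so matches may overlap each other, and a match is one of letters only. So one gene that fell and one that rose shared the CCAAT box, and the other gene in each direction lacked it.

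SREBF1, the regulator of the pathway, had 36.1, 42.9 and 41.8 CPM with LYCAT shRNA, against 58.7, 45.4 and 57.9 CPM in the control shRNA libraries. All 3 LYCAT shRNA libraries lay below all control libraries, though LYCAT replicate 2 and control replicate 2 were close. The mean was 40.3 ± 3.62 CPM with LYCAT shRNA and 54.0 ± 7.46 CPM with control shRNA (SD, n = 3 each), so that SREBF1 fell by 25.6%. Its log2 fold change was -0.43 (SE 0.106, edgeR adjusted p = 0.00178). The call was lost without LYCAT shRNA replicate 1, the lowest library (edgeR adjusted p = 0.056, log2 -0.35). Without control replicates 1 and 2 the fall was as large, at log2 -0.53 (edgeR adjusted p = 0.00715).

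SCD encodes stearoyl-CoA desaturase, which puts the first double bond into saturated chains and is a known target of SREBP-1. It had 416, 440 and 431 CPM in LYCAT shRNA libraries and 506, 448 and 502 CPM in control shRNA libraries. The groups did not overlap, but control replicate 2 exceeded LYCAT replicate 2 by only a small margin, and it was also the control library in which SREBF1 was lowest. The means were 429 ± 12.0 CPM with LYCAT shRNA and 485 ± 32.7 CPM with control shRNA (SD, n = 3 each), and SCD fell by 11.6% (log2 -0.18, SE 0.0501, edgeR adjusted p = 0.00629). This small fall did not pass without LYCAT shRNA replicate 1 (edgeR adjusted p = 0.0927), control replicate 1 (0.0603) or control replicate 3 (0.0602). Without LYCAT shRNA replicate 1 neither SREBF1 nor SCD passed, and no other member was called lower in its place.

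**Figure D1:**
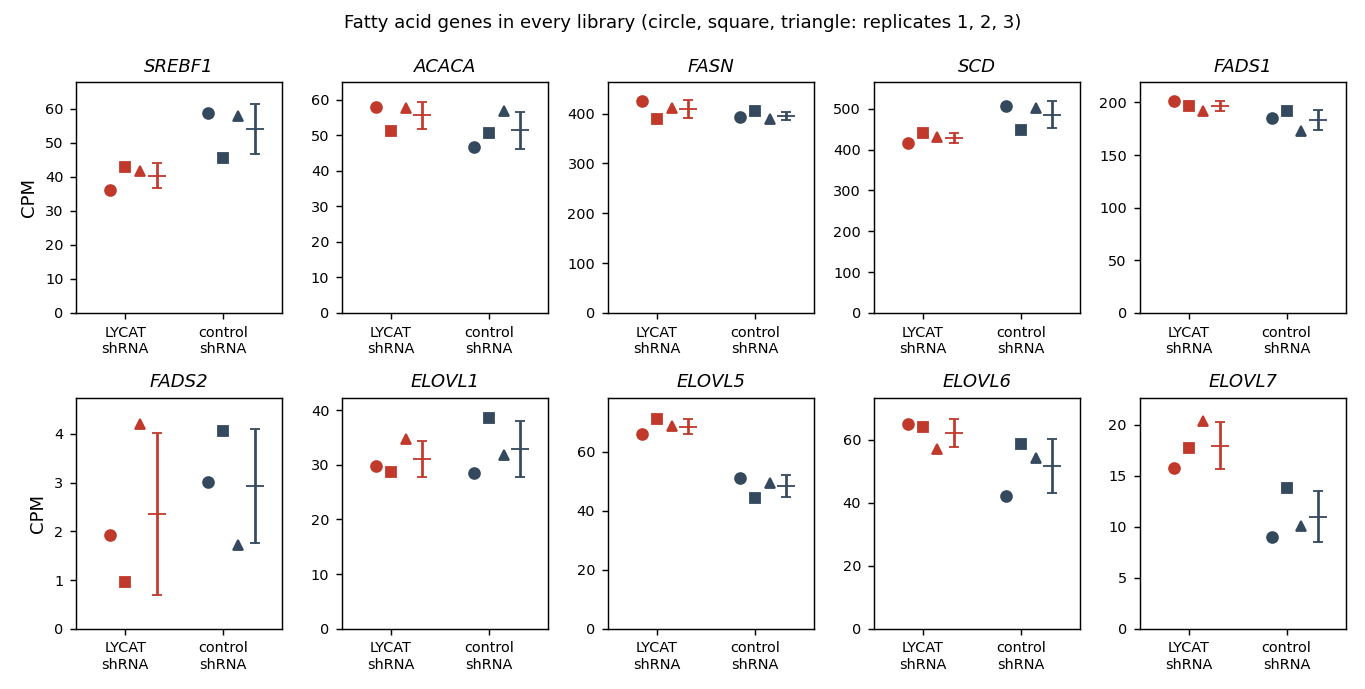
Level of each of the 10 genes in CPM (vertical axes, starting at 0) in the 3 LYCAT shRNA libraries and the 3 control shRNA libraries, with the mean and SD beside the points. SREBF1 and SCD lie lower and ELOVL5 and ELOVL7 higher in all 3 LYCAT shRNA libraries, and the other 6 genes overlap between the groups.

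The synthesis enzymes themselves overlapped between the groups. ACACA, acetyl-CoA carboxylase, which makes malonyl-CoA, had 58.1, 51.3 and 57.7 CPM with LYCAT shRNA and 46.7, 50.7 and 56.9 CPM with control shRNA. Its log2 fold change was 0.13 with a 95% interval of -0.07 to 0.32 (edgeR adjusted p = 0.401), and without control replicates 1 and 2 it was -0.020. FASN, fatty acid synthase, which builds palmitate, had 425, 390 and 412 CPM with LYCAT shRNA and 393, 405 and 390 CPM with control shRNA. Both the lowest library with LYCAT shRNA and the lowest with control shRNA stood at 390 CPM. For FASN, which had at least 1210 counts in every library, the interval of the log2 fold change was narrow, -0.05 to 0.15 (edgeR adjusted p = 0.55). Taken as a sum, ACACA and FASN reached 441 to 483 CPM with LYCAT shRNA and 440 to 455 CPM with control shRNA.

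FADS1 and FADS2 lie side by side on chromosome 11 and desaturate polyunsaturated chains: FADS2 takes the first step and FADS1 a later one. FADS1 had 201, 197 and 191 CPM in the LYCAT shRNA libraries and 185, 192 and 173 CPM in the control shRNA libraries. Only LYCAT replicate 3 and control replicate 2 crossed, by under 1 CPM, and the log2 fold change of 0.10 did not pass (95% interval -0.02 to 0.22, edgeR adjusted p = 0.277). FADS2 was near the limit of detection, with counts of 9, 3 and 18 in LYCAT shRNA libraries and 14, 20 and 7 in control shRNA libraries. The interval of its log2 fold change ran from -1.08 to 0.53 (edgeR adjusted p = 0.704). At this depth it holds a fall of the size seen for SREBF1 and also a fall as large as the rise of ELOVL7. In the GENCODE v29 annotation the exons of the 2 genes share 142 bases on opposite strands, and the sources used here do not say whether counting used strand.

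ELOVL5 lengthens polyunsaturated chains in the same route as FADS1 and FADS2. ELOVL5 had 65.9, 70.9 and 68.7 CPM with LYCAT shRNA, against 51.2, 44.2 and 49.5 CPM with control shRNA. The lowest LYCAT shRNA library was well above the highest control library. Its mean was 68.5 ± 2.52 CPM with LYCAT shRNA and 48.3 ± 3.67 CPM with control shRNA (SD, n = 3 each), a rise of 1.42-fold (log2 0.50, SE 0.0933, edgeR adjusted p = 2.4e-05). ELOVL5 passed in all 15 alternative settings, with log2 fold changes of 0.44 to 0.55.

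ELOVL7, an elongase of long saturated chains, was the least abundant elongase member, both in CPM and per length of annotated exons. It had 15.7, 17.7 and 20.3 CPM in LYCAT shRNA libraries, from counts of 74, 55 and 87, and 9.00, 13.8 and 10.1 CPM in control shRNA libraries, from counts of 42, 68 and 41. Again the groups did not overlap, and control replicate 2 was the highest control. The mean was 17.9 ± 2.30 CPM with LYCAT shRNA and 11.0 ± 2.50 CPM with control shRNA (SD, n = 3 each). ELOVL7 rose 1.62-fold (log2 0.70, SE 0.180, edgeR adjusted p = 0.00271), and its 95% interval of 0.34 to 1.06 reflects these low counts. It passed in all 15 alternatives, with log2 fold changes of 0.57 to 0.91 and a largest adjusted p of 0.0486.

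ELOVL6, which lengthens palmitate to stearate and is a known target of SREBP-1, had 65.1, 64.2 and 57.0 CPM with LYCAT shRNA and 42.0, 58.8 and 54.2 CPM with control shRNA. One control library, replicate 2, lay above LYCAT replicate 3. The log2 fold change of 0.26 (SE 0.0995, edgeR adjusted p = 0.0526) fell just short of the threshold. Without control replicate 2 it passed at log2 0.38 (edgeR adjusted p = 0.00448), and without LYCAT shRNA replicate 3 at log2 0.33 (0.0457). Without control replicate 1, its lowest library, ELOVL6 stood at log2 0.13 (edgeR adjusted p = 0.448), without control replicates 1 and 2 at 0.20 (0.369), and with DESeq2 its adjusted p was 0.205. It also passed with the replicate number as a block (edgeR adjusted p = 0.0388) and without the filter on low counts (0.039). ELOVL1, which makes very long saturated and monounsaturated chains, had 29.8, 28.7 and 34.8 CPM with LYCAT shRNA and 28.5, 38.5 and 31.8 CPM with control shRNA. The log2 fold change of ELOVL1 was -0.08 (95% interval -0.32 to 0.16, edgeR adjusted p = 0.708), and without control replicate 2, its highest library, it was 0.055.

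**Figure D2:**
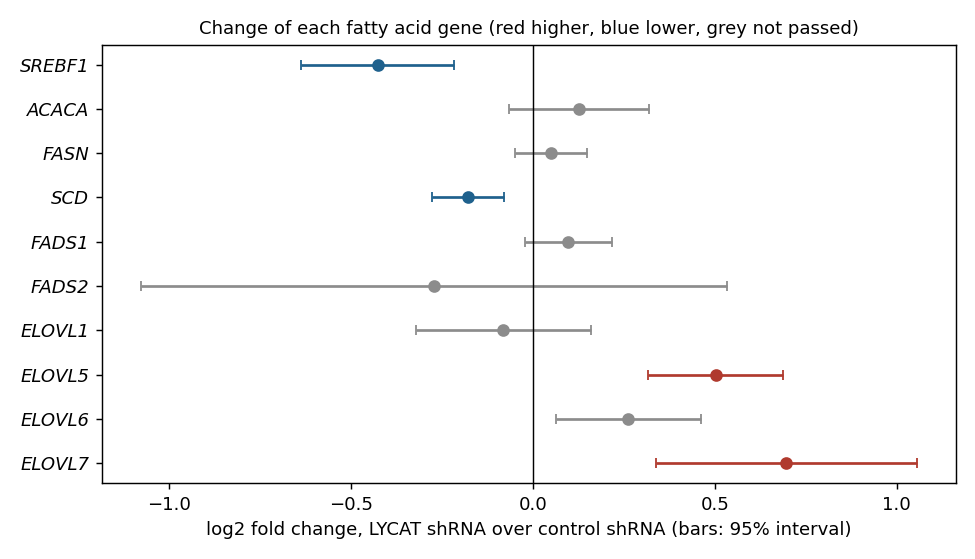
Log2 fold change of each gene, LYCAT shRNA over control shRNA (horizontal axis), with its 95% interval from the edgeR fit. SREBF1 at -0.43 and SCD at -0.18 passed as lower, ELOVL5 at 0.50 and ELOVL7 at 0.70 as higher, and ELOVL6 at 0.26 has an interval above 0 but an adjusted p of 0.0526.

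Summed by step, the 4 elongase members reached 176, 182 and 181 CPM in LYCAT shRNA libraries, against 131, 155 and 146 CPM in control shRNA libraries. The desaturase members SCD, FADS1 and FADS2 together had 620, 638 and 627 CPM with LYCAT shRNA and 694, 644 and 677 CPM with control shRNA. Neither of these sums overlapped between the groups, and they moved in opposite directions. The desaturase sum fell with SCD, whereas FADS1 had a mean of 197 CPM with LYCAT shRNA and 183 CPM with control shRNA. The elongase sum holds ELOVL5 and ELOVL7, which had passed as higher, and ELOVL1, which did not rise. It also holds ELOVL6, which had not passed, with a mean of 62.1 CPM with LYCAT shRNA and 51.7 CPM with control shRNA. Both separations thus follow in part from members already called and do not describe each step as a whole. All 10 members together held 1304 to 1319 CPM with LYCAT shRNA and 1300 to 1328 CPM with control shRNA, so the total of the set overlapped. These sums are descriptions of chosen genes and carry no test. Within the 4 elongases, ELOVL1 took 17.3% ± 1.76 of their counts with LYCAT shRNA and 22.8% ± 1.73 with control shRNA, while ELOVL7 took 9.98% ± 1.18 with LYCAT shRNA and 7.57% ± 1.14 with control shRNA (SD, n = 3 each).

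Ratios of 2 members within a library do not depend on how libraries are scaled. Of 9 such ratios, computed with the members' values known and without a test, ELOVL5 to SCD separated the groups most evenly: 0.158, 0.161 and 0.159 with LYCAT shRNA, against 0.101, 0.0987 and 0.0985 with control shRNA. The spread within a group was smaller than counting error alone gives for the ELOVL5 counts of 201 to 310, so its evenness is not a measure of precision. Because ELOVL5 had passed as higher and SCD as lower, both without overlap, the separation of their ratio was given in advance. FADS1 to SCD was 0.484, 0.447 and 0.444 with LYCAT shRNA and 0.366, 0.429 and 0.345 with control shRNA, also without overlap. FASN to SREBF1 was 11.8, 9.10 and 9.86 with LYCAT shRNA and 6.69, 8.92 and 6.74 with control shRNA and did not overlap, with replicate 2 of each group closest. FADS1 to SCD and FASN to SREBF1 each set a member that had not passed against one already called lower. SCD to FASN, at 0.979, 1.13 and 1.05 with LYCAT shRNA and 1.29, 1.11 and 1.29 with control shRNA, overlapped through replicate 2 of each group.

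**Figure D3:**
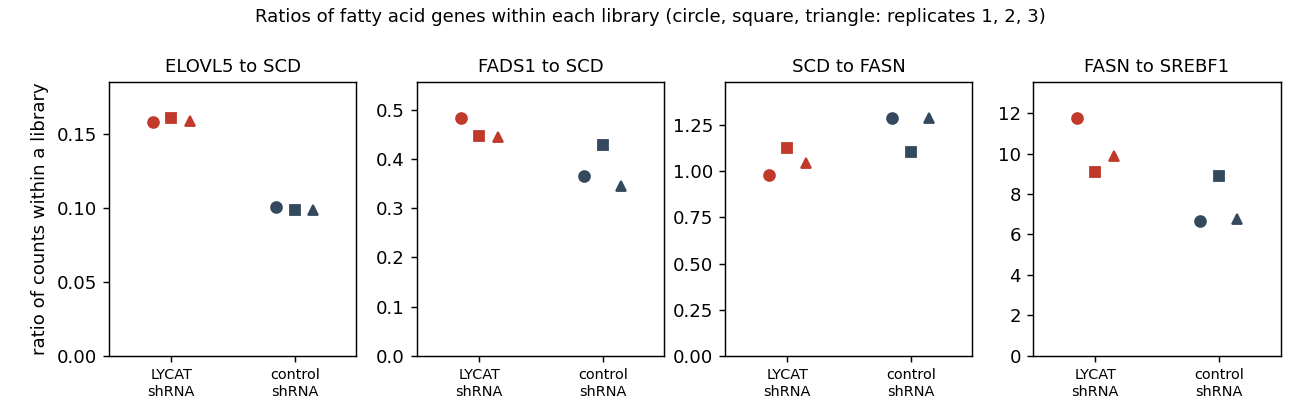
Ratio of the counts of 2 genes within each library (vertical axes, starting at 0) for 4 of the 9 ratios, in the 3 LYCAT shRNA and the 3 control shRNA libraries. ELOVL5 to SCD lies at 0.158 to 0.161 with LYCAT shRNA and 0.0985 to 0.101 with control shRNA, and SCD to FASN overlaps.

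To compare levels between genes, CPM was divided by the length of all annotated exons (GENCODE v29, GRCh38) in kilobases. SCD was highest, with 80.0 ± 2.24 CPM per kilobase with LYCAT shRNA and 90.5 ± 6.11 with control shRNA (SD, n = 3 each, here and below). FASN followed with 47.8 ± 2.06 CPM per kilobase with LYCAT shRNA and 46.2 ± 0.898 with control shRNA, and FADS1 with 24.9 ± 0.625 with LYCAT shRNA and 23.2 ± 1.21 with control shRNA. With LYCAT shRNA the order below these was ELOVL5 (19.7 ± 0.722), ELOVL1 (17.4 ± 1.82), ELOVL6 (9.36 ± 0.669), SREBF1 (8.96 ± 0.805), ACACA (5.05 ± 0.346), ELOVL7 (4.13 ± 0.529) and FADS2 (0.474 ± 0.334 CPM per kilobase). With control shRNA the order was ELOVL1 (18.4 ± 2.86), ELOVL5 (13.9 ± 1.05), SREBF1 (12.0 ± 1.66), ELOVL6 (7.79 ± 1.31), ACACA (4.67 ± 0.465), ELOVL7 (2.52 ± 0.577) and FADS2 (0.588 ± 0.234 CPM per kilobase). The ranges of ELOVL5 and ELOVL1 overlapped across the LYCAT shRNA libraries, as did those of ELOVL6 and SREBF1 and of ACACA and ELOVL7. Within each LYCAT shRNA library, however, ELOVL5 lay above ELOVL1 and ACACA above ELOVL7. Only ELOVL6 and SREBF1 changed order, in LYCAT shRNA replicate 3. With control shRNA the ranges of ELOVL5 and SREBF1 overlapped, though ELOVL5 lay above SREBF1 within each library, and the ranges of the other neighbours did not overlap. SCD thus had the most CPM per kilobase of annotated exons among the members in both groups, and FADS2 the least. This length joins all annotated exons of a gene and can exceed that of the transcripts present, so the order depends on it.

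Other genes around the pathway were read from lists chosen from textbook knowledge, with earlier results of these data known. The genes that supply acetyl-CoA, malonyl-CoA and NADPH passed as lower in 3 of 12 tested members and as higher in none, where 9.26% of all tested genes passed as lower and 9.81% as higher. Their median log2 fold change was -0.11, against -0.01 over all tested genes, and the same background stands beside the counts of the lists that follow. IDH1, a cytosolic isocitrate dehydrogenase that makes NADPH, fell to 103 ± 5.35 CPM with LYCAT shRNA, against 187 ± 20.6 CPM with control shRNA (log2 -0.86, edgeR adjusted p = 2.22e-16). PGD, an NADPH-producing enzyme of the pentose phosphate pathway, fell by 0.20 on the log2 scale. PGD did not pass without control replicates 1 and 2 (edgeR adjusted p = 0.0897). ACLY, which makes cytosolic acetyl-CoA from citrate, had 318 ± 16.3 CPM with LYCAT shRNA and 316 ± 12.7 CPM with control shRNA and a log2 fold change of 0.0085, which was -0.0055 on library totals. ACSS2, which makes acetyl-CoA from acetate, did not pass at log2 0.20 (edgeR adjusted p = 0.413). Without control replicates 1 and 2 ACSS2 passed as higher at log2 0.68 (edgeR adjusted p = 0.0496), and with 1 library left out it passed in none of the 6 fits, at log2 0.037 to 0.43. ACACB, the mitochondrial paralog of ACACA, stood at 3.83, 2.26 and 4.20 CPM with LYCAT shRNA and 9.86, 4.26 and 3.69 CPM with control shRNA (log2 -0.75, edgeR adjusted p = 0.0994). ACACB passed as lower without control replicate 2 (edgeR adjusted p = 0.0319) or control replicate 3 (0.0408). Without control replicate 1, its highest library, it stood at log2 -0.17 (edgeR adjusted p = 0.822), and without control replicates 1 and 2 at -0.059 (0.966), so its difference rested on that library.

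In the separate mitochondrial pathway of fatty acid synthesis 1 of 8 tested genes rose, MCAT, the malonyl transferase, to 19.1 ± 2.46 CPM with LYCAT shRNA, against 13.9 ± 1.65 CPM with control shRNA (log2 0.47, edgeR adjusted p = 0.0318). MCAT did not pass without LYCAT shRNA replicate 1 or 2 or control replicate 1 or 2 (edgeR adjusted p = 0.0743 to 0.212), without control replicates 1 and 2 together (log2 0.28, 0.496) or with DESeq2 (0.156). Of the other steps of elongation 0 of 4 tested genes passed with edgeR, DESeq2 or limma-voom. At an unadjusted edgeR p under 0.05, 1 was lower, where 1693 of all 11097 tested genes were. PTPLAD1, a dehydratase of the elongation cycle, had 358 ± 10.2 CPM with LYCAT shRNA and 340 ± 5.50 CPM with control shRNA, and HSD17B12, its ketoreductase, 78.1 ± 3.16 CPM with LYCAT shRNA and 79.6 ± 4.13 CPM with control shRNA. The elongase paralogs ELOVL2 and ELOVL4 had at most 1.01 CPM in any library and ELOVL3 had no count, so ELOVL1, ELOVL5, ELOVL6 and ELOVL7 were the elongases abundant enough to test.

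Among the other desaturases and their electron donors 2 of 8 tested genes rose and none fell. DEGS1, the desaturase of ceramide synthesis, rose to 63.3 ± 7.10 CPM with LYCAT shRNA, against 48.0 ± 3.14 CPM with control shRNA (log2 0.41, edgeR adjusted p = 0.0011). CYB5A, cytochrome b5, which hands electrons to SCD and the FADS enzymes, rose to 57.5 ± 2.49 CPM with LYCAT shRNA, against 47.4 ± 2.43 CPM with control shRNA (log2 0.28, edgeR adjusted p = 0.0272). DEGS1 did not pass without LYCAT shRNA replicate 3 (edgeR adjusted p = 0.0517) or without control replicates 1 and 2 (0.0978). CYB5A did not pass without LYCAT shRNA replicate 1 or 3 or control replicate 1 or 2 (edgeR adjusted p = 0.0515 to 0.146), without control replicates 1 and 2 together (log2 0.20, 0.364) or with DESeq2 (0.121). The paralogs SCD5 (log2 -0.15, edgeR adjusted p = 0.513) and FADS3 (0.26, 0.534) did not pass.

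Of 24 tested genes that control SREBP and lipogenic transcription 1 rose and 2 fell. SREBF2, the paralog of SREBF1 that acts mainly on sterol synthesis, had 7.57 ± 0.485 CPM with LYCAT shRNA and 8.13 ± 1.28 CPM with control shRNA (log2 -0.10, edgeR adjusted p = 0.824). SCAP, the escort of SREBP, stood at log2 -0.09 (edgeR adjusted p = 0.562). INSIG1, which retains that complex and is itself induced by SREBP, had 34.9, 35.2 and 37.6 CPM with LYCAT shRNA, against 41.2, 38.5 and 42.8 CPM with control shRNA; the groups did not overlap, yet log2 -0.18 did not pass (edgeR adjusted p = 0.259). PRKAG1, a subunit of the AMP-activated kinase that inhibits acetyl-CoA carboxylase, rose (log2 0.41, edgeR adjusted p = 0.000458). PRKAB2, another subunit, fell by 0.38 and RXRA, the partner of the LXR receptors that induce SREBF1, by 0.24 on the log2 scale. PRKAB2 did not pass without LYCAT shRNA replicate 3 or control replicate 1 or 3 (edgeR adjusted p = 0.0731 to 0.0929), RXRA not without LYCAT shRNA replicate 2 or 3 or control replicate 2 or 3 (0.0946 to 0.14), and neither with DESeq2 (0.102 and 0.123). RXRA was also lost without control replicates 1 and 2 (edgeR adjusted p = 0.0891).

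Sterol synthesis genes, the other branch of SREBP targets, were all tested, and 0 of 22 passed with edgeR, DESeq2 or limma-voom. At an unadjusted edgeR p under 0.05, 5 were higher and 0 lower. Of all 11097 tested genes 1722 were higher and 1693 lower at that threshold. The median log2 fold change of the sterol synthesis genes was 0.04. With 1 library left out, 1 passed as higher without LYCAT shRNA replicate 2 or control replicate 3, and 1 as higher and 2 as lower without control replicate 2. CYP51A1, a demethylase of sterol synthesis, had 242 ± 17.6 CPM with LYCAT shRNA and 260 ± 21.7 CPM with control shRNA; it passed as lower without control replicate 2 (log2 -0.17, edgeR adjusted p = 0.0211). FDPS, which makes farnesyl diphosphate, had 230 ± 4.77 CPM with LYCAT shRNA and 234 ± 19.8 CPM with control shRNA.

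Further along, genes that activate, import or store fatty acids moved in both directions. Of 4 tested acyl-CoA synthetase genes 1 fell, ACSS3, a mitochondrial synthetase of short chains, with 6.80, 7.74 and 11.2 CPM with LYCAT shRNA and 15.9, 14.2 and 8.62 CPM with control shRNA. These groups overlapped, and ACSS3 (log2 -0.60, edgeR adjusted p = 0.0387) was lost without LYCAT shRNA replicate 1 or 2 or control replicate 1 or 2 (0.107 to 0.268), with DESeq2 (0.203), limma-voom (0.0707), robust=FALSE (0.0528) and the replicate block (0.0539), and stood at log2 -0.0010 without control replicates 1 and 2. Of 12 tested uptake and binding genes 2 rose and 2 fell. SLC27A5, a fatty acid transport protein and acyl-CoA synthetase, rose to 32.3 ± 4.19 CPM with LYCAT shRNA, against 19.2 ± 1.02 CPM with control shRNA, and MFSD2A, a transporter of lysophospholipids, fell to 18.7 ± 3.18 CPM with LYCAT shRNA, against 29.8 ± 2.36 CPM with control shRNA. FABP6, a bile acid binding protein, rose by 0.91 and SLC27A3 fell by 0.30 on the log2 scale. FABP6 did not pass without LYCAT shRNA replicate 1 (edgeR adjusted p = 0.0669), nor SLC27A3 without LYCAT shRNA replicate 1 or 3 or control replicate 3 (0.0602 to 0.136), without control replicates 1 and 2 (0.0983) or with DESeq2 (0.1).

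Genes of triglyceride synthesis and lipid droplets rose in 6 of 15 tested members and fell in none, where 9.81% of all tested genes rose and 9.26% fell. Their median log2 fold change was 0.15, with summed levels of 630 to 670 CPM with LYCAT shRNA and 511 to 550 CPM with control shRNA. This sum holds the 6 genes called higher, among them G0S2 with a mean of 82.7 CPM with LYCAT shRNA and 24.8 CPM with control shRNA. Its separation thus follows in large part from genes already called and does not describe the list as a whole. G0S2, which inhibits the lipase that opens stored triglyceride, rose to 86.1, 83.8 and 78.2 CPM with LYCAT shRNA, against 28.5, 23.1 and 22.9 CPM with control shRNA (log2 1.73, SE 0.103, edgeR adjusted p = 2.6e-24). MGLL, monoacylglycerol lipase, had 8.08, 8.71 and 7.01 CPM with LYCAT shRNA and 1.93, 1.42 and 0.985 CPM with control shRNA (log2 2.41, SE 0.342), so the size of its rise is imprecise. SOAT1, which makes cholesteryl esters, rose to 32.3 ± 1.80 CPM with LYCAT shRNA, against 22.4 ± 1.00 CPM with control shRNA. The remaining 3, named after their values were seen, were DGAT2 (log2 0.86) and DGAT1 (0.51), which close the synthesis of triglyceride, and LPIN1 (0.30), a phosphatidate phosphatase. With DESeq2 3 of the list passed as higher, where 5.72% of all tested genes did, and none of DGAT1, DGAT2 and LPIN1 (adjusted p = 0.196, 0.0503 and 0.0716), and the same 3 were not called without control replicates 1 and 2 (edgeR adjusted p = 0.155, 0.486 and 0.172). DGAT1 (edgeR adjusted p = 0.0493) was lost without any one library other than LYCAT shRNA replicate 3 (0.0728 to 0.228) and on library totals, without the filter on low counts, with limma-voom and with robust=FALSE (0.0544 to 0.0662), DGAT2 without LYCAT shRNA replicate 2 (0.057), and LPIN1 without LYCAT shRNA replicate 3 (0.0913) or control replicate 1 (0.0666).

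**Figure D4:**
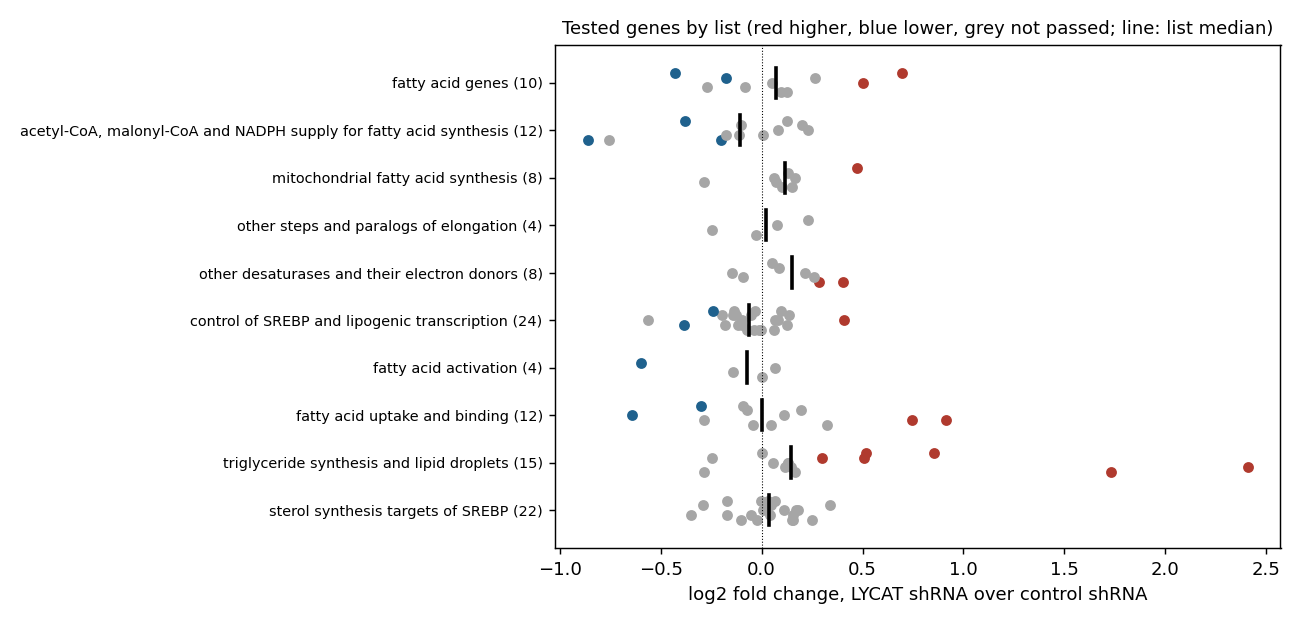
Log2 fold change, LYCAT shRNA over control shRNA (horizontal axis), of each tested gene of the fatty acid set and of 9 lists of neighbouring steps (rows, number tested in brackets), with the list median as a line. Of the 15 triglyceride and lipid droplet genes 6 passed as higher, and of the 22 sterol synthesis genes 0 passed.

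Across the alternative settings the 4 members that passed kept their direction. ELOVL5 and ELOVL7 passed in 15 of 15 settings, SREBF1 in 14 and SCD in 12, and ELOVL6 passed in 4.

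**Figure D5:**
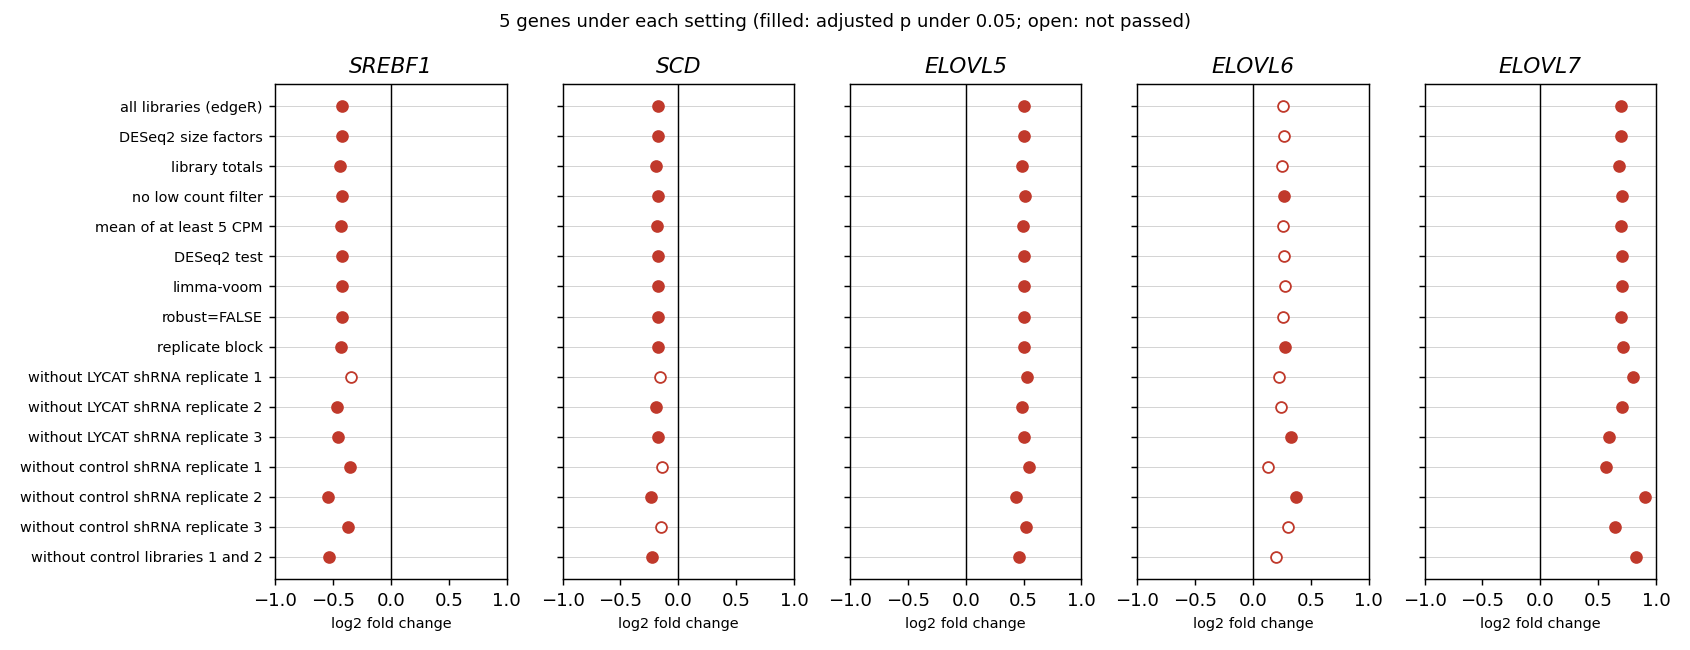
Log2 fold change, LYCAT shRNA over control shRNA (horizontal axes), of 5 genes in the fit of all libraries and under 15 alternative settings (rows); filled points have an adjusted p under 0.05 and open points do not. SREBF1 is open in 1 alternative, SCD in 3 and ELOVL6 in 11, and ELOVL5 and ELOVL7 are filled throughout.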

How the data were processed

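The deposited table, from the authors, holds raw counts per gene symbol for 6 libraries, 3 with LYCAT shRNA and 3 with control shRNA; library totals were 3118946 to 4930079 counts. The tools named per the submitters' processing notes are featureCounts 1.5.1, Bowtie2, BWA 0.7.15 and bcl2fastq 2.17, with the builds hg19 and mm10; the sources used here do not say which of them made this table or whether strand was used. Columns were assigned by name; that of the LYCAT shRNA group reads as a misspelling of LYCAT.

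Genes were filtered with filterByExpr by group, which left 11097 of 23368, and scaled with TMM factors (0.993 to 1.01). LYCAT shRNA was compared with control shRNA by the quasi-likelihood test of edgeR 4.0.16 (R 4.3.3; robust=TRUE, group as the only term), with Benjamini-Hochberg adjustment over all tested genes and a threshold of 0.05. The SE of a log2 fold change is its absolute value over the square root of F. Alternatives, 15 in all, were other scalings and filters, DESeq2 1.42.0, limma-voom (limma 3.58.1), robust=FALSE, a replicate block and left-out libraries. The fits were tested on simulated counts. Exon lengths (GENCODE v29) and promoters (RefSeq) are on GRCh38, not a build the notes name, and served only for lengths and sequences.

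The members and lists were chosen with earlier results of these data known. All 10 members were named; from each other list the rule took in each direction up to 3 changed genes by adjusted p, or 2 abundant genes where none changed, plus the paralogs and direct partners of members (SREBF2, SCAP, INSIG1, ACLY, ACSS2, ACACB, SCD5, FADS3, ELOVL2, ELOVL3 and ELOVL4). A gene of the lists that the rule takes is counted in its list but not reported here. Intervals of log2 fold changes come from the same fit, and 3 counts were taken as the floor; both cover these libraries only.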

Additional observations from a re-analysis of the deposited data

How the results depend on the processing

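Over all genes 1089 passed as higher and 1028 as lower; with DESeq2 these counts were 635 and 558, and without control replicates 1 and 2 together 573 and 556, with fewer libraries in that fit. With 1 library left out they were 742 to 1128 higher and 700 to 1100 lower, and the largest counts in both directions were without control replicate 2. For the fatty acid genes, 2 passed as higher and 2 as lower; with 1 library left out 2 to 3 were higher and 0 to 2 lower, where 0 was without LYCAT shRNA replicate 1 and 1 without control replicate 1 or control replicate 3. Of the 109 tested genes of the other pathway lists together 12 passed as higher and 8 as lower, shares near the 9.81% and 9.26% of all tested genes, against 7 and 4 with DESeq2 and 7 and 5 without control replicates 1 and 2, and 8 to 12 and 6 to 9 with 1 library left out. LCLAT1 passed as lower in every alternative run.

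Changes of sign occurred in genes that had not passed. With 1 library left out the log2 fold change ran from -0.95 to 0.039 for FADS2, from -0.18 to 0.055 for ELOVL1, from -0.056 to 0.013 for HSD17B12, from -0.091 to 0.029 for FDPS, from -0.17 to 0.032 for SREBF2, from -0.033 to 0.035 for ACLY and from -0.033 to 0.51 for FADS3. On library totals ACLY stood at -0.0055. Without control replicates 1 and 2 the values were -0.020 for ACACA, 0.51 for FADS2, 0.043 for HSD17B12, 0.046 for SCAP and 0.00093 for SCD5; the cause was not tested.

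With the replicate number as a block 1044 genes passed as higher and 1002 as lower, with 3 and 2 members, the added one being ELOVL6 (adjusted p = 0.0388). The labels do not say whether same-numbered libraries of the 2 groups were handled together. Their deviations from the group means correlated at -0.021, -0.063 and 0.0052, and no library correlated best with its own number. With so few libraries these correlations cannot settle whether the number marks a pairing. Scaling moved the median of all genes by under 0.1. Depth limits FADS2 and ELOVL7 most among the members.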
